A study of Mus musculus with 5 samples.

Results

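Gm10222 and Gm10925 are 2 of the 22359 protein-coding genes of the GENCODE annotation of NCBIM37 (mm9) for which a promoter window was taken. They lie side by side on chromosome 1, inside a stretch of nuclear DNA that is nearly identical to the mitochondrial genome. They were chosen by their depth in the 5 coverage libraries of the Pcgf6 ChIP-seq, taken over a 40 kb interval (24600001 to 24640000) and over 2 kb on either side of each transcription start site (TSS), with Abcam set against Santa Cruz and input. These values picked the genes, so they are given as a description with no test.

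ChIP-seq pulls down the DNA bound by a protein and sequences it, and input DNA is the same chromatin sequenced without a pull-down. All libraries came from CCE, an established line of mouse embryonic stem cells (ESCs), grown with LIF and cross-linked with disuccinimidyl glutarate and paraformaldehyde. The groups were 2 libraries with the Santa Cruz antibody to Pcgf6 (sc-160649), 2 libraries with the Abcam antibody to Pcgf6 (ab48010), and 1 input library with no antibody. No library from cells lacking Pcgf6 was analysed here, so signal that does not depend on Pcgf6 was measured in the input alone. The depth was 2289590 and 2299460 fragment equivalents with Santa Cruz, 2761080 and 2849820 with Abcam and 22801000 in the input, where 1 fragment equivalent is 300 bp of summed depth. Normalised depth below is the number of fragment equivalents per 1000000 of the library. The 2 libraries of an antibody held largely the same fragments (87.9% of Santa Cruz positions and 88.1% of Abcam positions of replicate 1 were found in replicate 2), and their counts differed by less than the sampling noise. In the mitochondrial-like stretch the shares were 71.4% (80 of 112) and 72.9% (213 of 292). They were averaged and counted as 1 sample, so no SD over replicates and no test was possible. Intervals are exact Clopper-Pearson 95% intervals and cover counting error only.

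Pcgf6 is a subunit of a variant form of the Polycomb repressive complex 1, which acts on chromatin in the nucleus. The mitochondrial genome is a small circle that encodes subunits of the respiratory chain, and it is present in many copies per cell. Pieces of it have been copied into nuclear chromosomes during evolution, and gene models are sometimes placed on them. The mitochondrial code reads the codon TGA as tryptophan, whereas the nuclear code reads it as a stop, so most mitochondrial reading frames are broken in the nucleus.

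The insert that holds both genes spans chr1:24618374-24623027 of NCBIM37, 4654 bp on the minus strand, and aligns to positions 6390 to 11042 of the mitochondrial genome of the same build with 99.936% identity. It touches 13 mitochondrial genes, 8 that encode proteins and 5 that encode tRNAs. These are mt-Co1, mt-Co2 and mt-Co3 (subunits of cytochrome c oxidase), mt-Atp8 and mt-Atp6 (subunits of ATP synthase), mt-Nd3, mt-Nd4l and mt-Nd4 (subunits of complex I), and mt-Ts1, mt-Td, mt-Tk, mt-Tg and mt-Tr. The insert holds 31.3% of mt-Co1, 63.6% of mt-Nd4 and the whole of the other 11. The ends of the insert are shown because they are where sequence particular to chromosome 1 begins. The insert is in capitals, read on the minus strand, with 30 bases of it and 30 bases of the flank.
mt-Co1 end, chr1:24622998-24623057: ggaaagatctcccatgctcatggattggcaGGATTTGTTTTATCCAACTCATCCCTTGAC
mt-Nd4 end, chr1:24618344-24618403: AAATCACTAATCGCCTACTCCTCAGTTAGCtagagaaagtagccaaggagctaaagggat

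Gm10222 (ENSMUSG00000067736.1) is a single exon at chr1:24619243-24619539 on the minus strand with its TSS at 24619539. Its 297 bases match positions 9877 to 10173 of the mitochondrial genome without a difference, which is the whole of mt-Nd4l. The frame of 99 codons, stop included, holds 0 internal TGA codons, and it was the single one of the 8 protein-coding copies without any. The start and stop codons are in capitals in its sequence, which is shown whole because it is at once a nuclear gene model and a mitochondrial gene.
Gm10222: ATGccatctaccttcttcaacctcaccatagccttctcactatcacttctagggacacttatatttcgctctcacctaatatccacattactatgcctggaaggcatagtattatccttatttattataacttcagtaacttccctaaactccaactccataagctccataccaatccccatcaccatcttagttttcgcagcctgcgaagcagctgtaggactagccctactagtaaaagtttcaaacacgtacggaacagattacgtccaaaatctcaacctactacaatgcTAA

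Gm10925 (ENSMUSG00000090378.1) is a model of 2 exons at chr1:24620814-24621627 on the minus strand, with its TSS at 24621627. The TSS falls within the copy of mt-Atp8 (24621448 to 24621651), and most of the gene lies on the copy of mt-Atp6 (24620810 to 24621490). The copy of mt-Atp6 holds 3 TGA codons in the mitochondrial frame, that of mt-Atp8 holds 3, and the most were in mt-Co3, with 12. GENCODE lists both genes as protein-coding, whereas the RefSeq gene table of GRCm38.p6 lists both as pseudogenes.

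The insert differed from the mitochondrial sequence at 3 places. In the tokens the mitochondrial base comes first, the position is counted along the mitochondrial genome, and the insert's base comes last. A6393T lies at position 24623024 of chromosome 1, so close to the end of the insert that most of the bases before it in the chromosome 1 line are flank. T9461C lies at position 24619956 in the first codon of the copy of mt-Nd3, between the 2 nuclear genes. The other difference is an extra A after mitochondrial position 9828, at position 24619588 of chromosome 1, in the copy of mt-Tr. The lines are shown in pairs because, in NCBIM37, these are the bases by which a read could be assigned to one genome or the other. The mitochondrial sequence of the CCE cells was not examined, so whether these bases separate the genomes in these libraries was not tested. The differing base is in capitals.
A6393T, mitochondrial genome: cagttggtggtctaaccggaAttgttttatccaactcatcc
A6393T, chromosome 1: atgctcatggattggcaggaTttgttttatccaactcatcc
T9461C, mitochondrial genome: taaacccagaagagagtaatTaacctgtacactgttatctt
T9461C, chromosome 1: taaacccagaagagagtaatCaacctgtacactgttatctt
extra A, mitochondrial genome: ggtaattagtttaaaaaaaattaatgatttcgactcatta
extra A, chromosome 1: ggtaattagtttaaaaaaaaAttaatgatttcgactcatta

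Of all stretches of 36 bases in the insert, 98.5% occurred without a difference in the mitochondrial genome, and 99.2% did so within 2 mismatches. The read length is not given in the sources used here, and 36 bases was taken as a short read. The deposited signal covers chromosomes 1 to 19, X and Y, and the signal of the mitochondrial chromosome was not analysed here. Whether fragments placed on the insert came from chromosome 1 or from mitochondrial DNA was not tested.

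Over the 40 kb interval the input library had a normalised depth of 113.3. The Santa Cruz libraries had 64.6 and 58.7, and the Abcam libraries had 137.0 and 132.7. The 2 Santa Cruz values lay below the input and the 2 Abcam values above it. Santa Cruz over input was 0.544 (95% interval 0.458 to 0.647), Abcam over input was 1.19 (1.06 to 1.33), and Abcam over Santa Cruz was 2.19 (1.79 to 2.66).

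**Figure D1:**
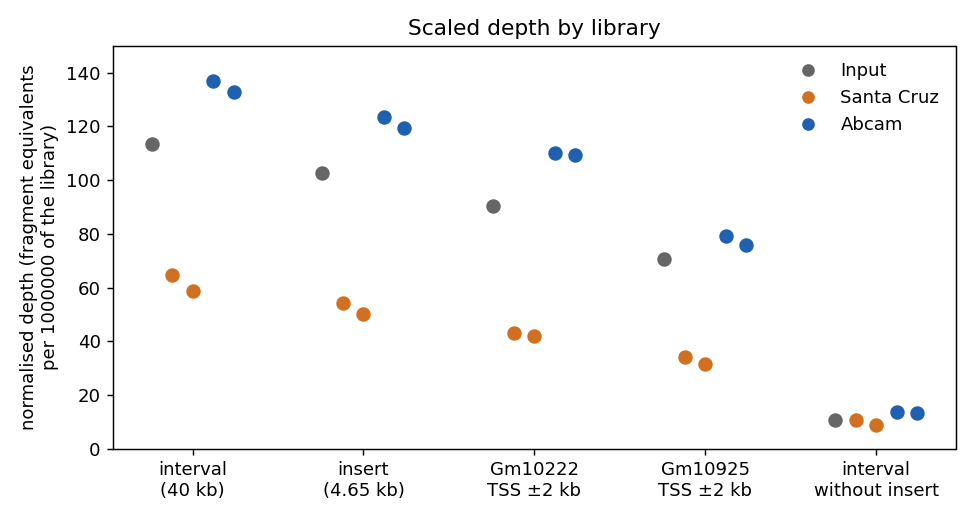
Normalised depth, in fragment equivalents per 1000000 of the library (y axis), in the input, the 2 Santa Cruz and the 2 Abcam libraries over 5 regions (x axis), 1 point per library. The Abcam points lie above the input and the Santa Cruz points below it in the interval, the insert and both TSS windows, while all 5 lie between 8.70 and 13.4 outside the insert.

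These ratios were read against all 62307 windows of 40 kb that had at least 20 input fragment equivalents. The Abcam level was at least 2-fold above the Santa Cruz level in 0.979% of windows, the interval among them, and at least 2-fold below it in 1.09%, and 396 windows had a higher ratio than the interval. Santa Cruz was at least 2-fold below input in 0.225% of windows and above it in 2.94%, neither of which included the interval, although 62062 windows had a higher value than its 0.544. The ratio of Abcam to input, 1.19 in the interval, was at least 2-fold higher in 2.23% of windows and 2-fold lower in 0.144%, and 21554 windows exceeded the interval (median of all, 1.06). In depth itself, 6 windows in the input, 18 with Santa Cruz and 9 with Abcam lay above the interval.

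**Figure D2:**
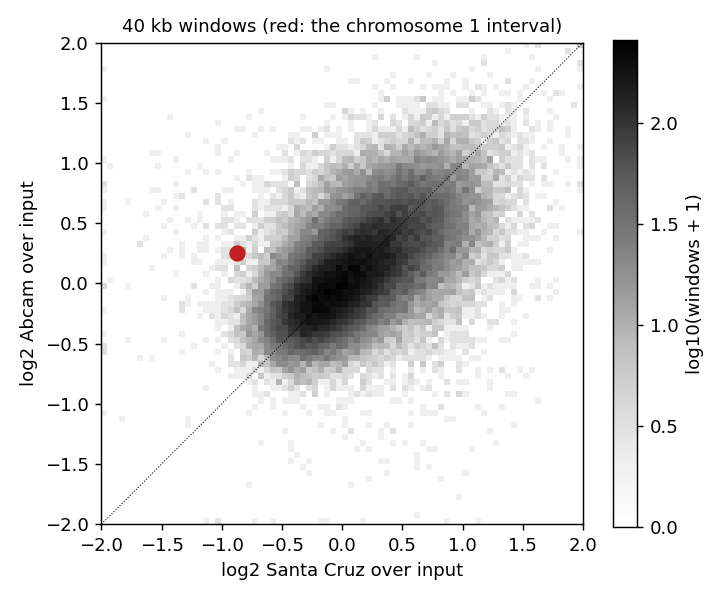
Log2 Santa Cruz over input (x axis) against log2 Abcam over input (y axis) in 40 kb windows, with the grey scale giving log10 of the number of windows plus 1 and the dotted line marking equal ratios. The red point is the chromosome 1 interval, at -0.88 and 0.25, to the upper left of most windows.

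At the TSS of Gm10222 the input had a normalised depth of 90.3, Santa Cruz had 43.0 and 42.1, and Abcam had 110.1 and 109.5. The 2 libraries of an antibody, which share most of their fragments, lay close together. Santa Cruz over input was 0.471 (0.382 to 0.580), Abcam over input 1.22 (1.08 to 1.37) and Abcam over Santa Cruz 2.58 (2.04 to 3.26). The counts behind these ratios were 2058 fragment equivalents in the input, 98.6 and 96.7 with Santa Cruz, and 304.1 and 311.9 with Abcam.

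At the TSS of Gm10925 the normalised depth was 70.8 in the input, Santa Cruz had 34.0 and 31.6, and Abcam had 79.0 and 76.0. The order of the libraries was that of Gm10222, but the gap between Abcam and input was smaller. Santa Cruz over input was 0.463 (0.361 to 0.582), Abcam over input 1.10 (0.944 to 1.26) and Abcam over Santa Cruz 2.36 (1.81 to 3.12). The interval of Abcam over input included 1 at this gene with 1 kb (0.900 to 1.36) and 2 kb on either side. It excluded 1 with 3 kb (1.02 to 1.29) and 10 kb (1.06 to 1.33), and at Gm10222 with each of these windows. The wider windows take in more of the insert and are less particular to this gene. The 2 genes are not separate measurements, since their TSSs lie 2088 bp apart and the windows of 4001 bp share 1913 bp, or 47.8% of each.

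Of the 2 promoters, 2 had Santa Cruz at least 2-fold below input, against 13.2% of the 19149 protein-coding promoters with at least 20 input fragment equivalents (3.26% were at least 2-fold above). Abcam was at least 2-fold above Santa Cruz at 2 of 2, against 12.2% of promoters (8.19% were at least 2-fold below), and at least 2-fold above input at 0 of 2, against 3.46% (9.57% were at least 2-fold below). These counts depended on the window. Santa Cruz over input was 0.501 and 0.521 at Gm10222 and Gm10925 with 3 kb on either side, 0.511 and 0.511 with 10 kb, and 0.594 at Gm10925 with 1 kb, all short of 2-fold, and Abcam over Santa Cruz at Gm10925 was 1.87 with 1 kb. Of all promoters, 1192 had a higher Abcam over Santa Cruz ratio than Gm10222 and 1503 a higher one than Gm10925. Most promoters had far fewer fragments (a median normalised depth of 3.38 in the input), so that counting error alone is wider there. Gm10222 had the highest input level of the 19149 promoters and Gm10925 stood behind 2 promoters.

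The ratios to input depended on how repeated positions were counted. With 1 fragment kept per position, Santa Cruz over input was 0.747 at Gm10222 and 0.756 at Gm10925, and Abcam over input was 1.84 and 1.71. The input was sequenced more deeply than the ChIP libraries, and the part of this in the change was not tested. The 2362 input fragments centred in the insert took 1365 positions, while the 124 and 115 Santa Cruz fragments took 114 and 109 and the 348 and 346 Abcam fragments took 309 and 302. The ratio between the antibodies moved less, to 2.47 at Gm10222 and 2.26 at Gm10925.

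Most of the depth of the interval lay in the insert. In the input, 90.6% of the depth of the interval lay in the insert, with Santa Cruz 83.7% and 85.2%, and with Abcam 90.2% and 89.9%. Mean depth in the insert was 151 in the input, 7.98 and 7.41 with Santa Cruz and 22.0 and 21.9 with Abcam. Against the 100 kb on either side this was 97.5-fold higher in the input (90.6 to 105), 45.4-fold and 43.6-fold with Santa Cruz, and 94.9-fold and 92.8-fold with Abcam. All 5 libraries were thus far above their surroundings, the input included.

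In the interval without the insert the normalised depth was 10.7 in the input, with Santa Cruz 10.5 and 8.70, and with Abcam 13.4 and 13.4. The ratio of Abcam to Santa Cruz was 1.40 (0.814 to 2.51) there and 2.33 (1.89 to 2.90) in the insert, and these intervals overlap. Santa Cruz over input was 0.901 (0.554 to 1.39) there and 0.507 (0.417 to 0.608) in the insert. Outside the insert no difference between the libraries was detectable at this depth.

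The depth was uneven along the insert, and the copy with the highest mean depth was not the same with both antibodies. The input and both Abcam libraries had their highest depth over the copy of mt-Co3, with means of 276 in the input and 41.2 and 42.0 with Abcam. The copy of mt-Nd4l came close, with 253 in the input and 40.8 and 41.2 with Abcam. The Santa Cruz libraries had their highest mean depth over the copies of mt-Atp8 (15.1 and 15.1) and mt-Nd4l (14.3 and 13.8), which is Gm10222 itself, and had 8.71 and 8.62 over mt-Co3. Over 15 bins of 300 bp, Pearson's r was 0.932 between Abcam and input, 0.543 between Santa Cruz and input and 0.477 between the antibodies. The Santa Cruz values rest on few fragments, 124 and 115 centred in the insert and 10.3 and 10.2 fragment equivalents over mt-Atp8. Whether the shapes differ beyond counting error was not tested. The bins also share libraries and base composition, so these are descriptions only.

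**Figure D3:**
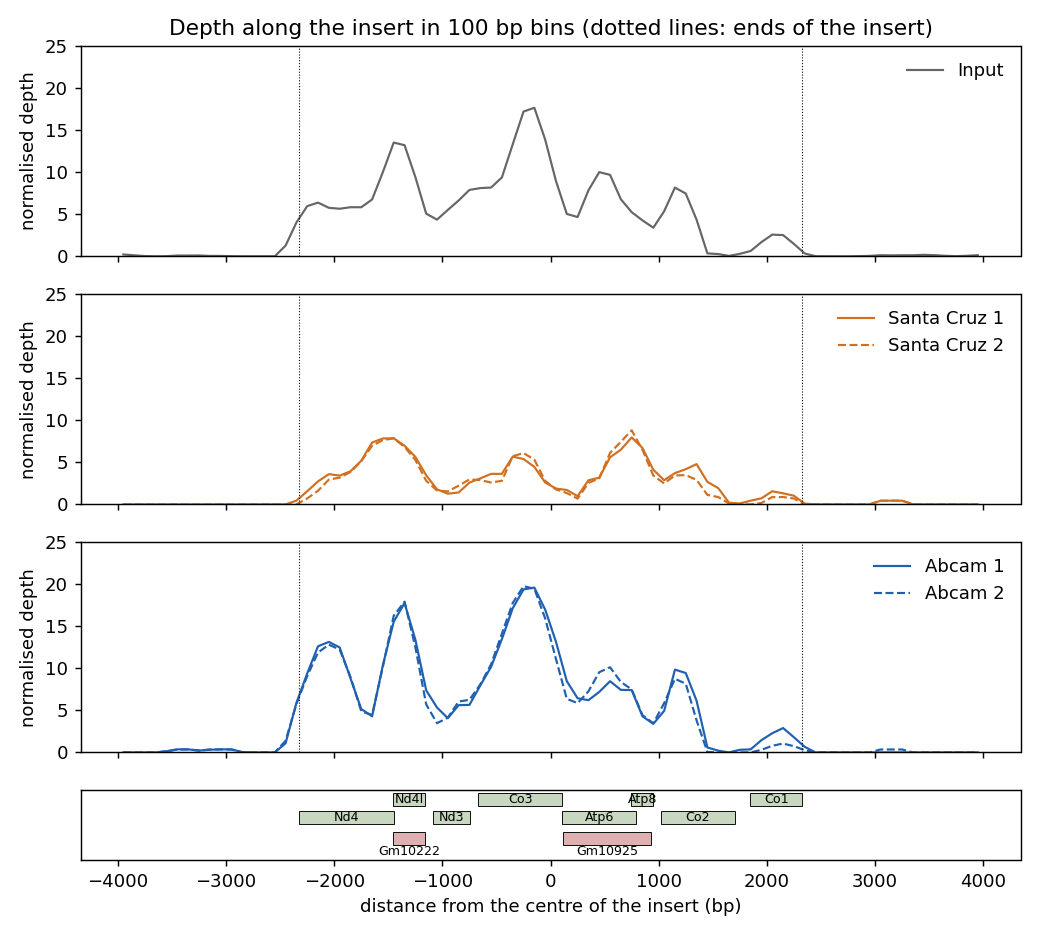
Normalised depth in 100 bp bins (y axis, mean depth per 1000000 fragment equivalents of the library) against distance from the centre of the insert in bp (x axis), for the input, the 2 Santa Cruz libraries (solid and dashed) and the 2 Abcam libraries. The bars below show the copies of mitochondrial genes (green) and the 2 nuclear genes (red). The depth falls away at the dotted lines, the ends of the insert, in all 5 libraries, and the tallest peak of the input and Abcam, over Co3, is lower than 2 others with Santa Cruz.

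Over the body of Gm10222 the mean depth was 253 in the input, 14.3 and 13.8 with Santa Cruz, and 40.8 and 41.2 with Abcam. This gave an Abcam over Santa Cruz ratio of 2.39 (1.28 to 4.76). Over the body of Gm10925 the mean depth was 150 in the input, 10.3 and 10.6 with Santa Cruz, and 18.8 and 20.8 with Abcam. Here the same ratio was 1.55 (0.981 to 2.58), an interval that included 1. The intervals of the 2 bodies overlap, and a difference between the genes was not tested.

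Among the 8 copies of protein-coding genes, Santa Cruz over input was below 1 in 7, with an interval that excluded 1 in 5. The lowest values were 0.311 at mt-Co3 (0.199 to 0.478) and 0.311 at mt-Nd3 (0.102 to 0.759). The exception was mt-Atp8, the shortest copy, at 1.54 (0.690 to 2.95). Abcam over input ranged from 0.671 at mt-Co1 to 1.41 at mt-Nd4, and its interval excluded 1 at mt-Nd4 alone (1.09 to 1.79). The value at mt-Co1 rested on few fragments and was 0.339 without Abcam replicate 1 and 1.003 without Abcam replicate 2, which left mt-Nd3 the lowest at 0.843. The ratio of Abcam to Santa Cruz was above 1 in 7 of the 8 (in 6 without Abcam replicate 1, when mt-Co1 had 0.793), with an interval that excluded 1 in 4, and ranged from 0.726 at mt-Atp8 (0.265 to 2.02) to 3.92 at mt-Co3 (2.46 to 6.37). These are the extremes of 8 values, and their intervals do not overlap. All 8 copies lie inside the interval whose values picked the genes, so these counts are a description. Over all promoters the median was 0.877 for Santa Cruz over input, 0.923 for Abcam over input and 1.06 for Abcam over Santa Cruz. The shares of promoters on either side of 1 were not counted.

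**Figure D4:**
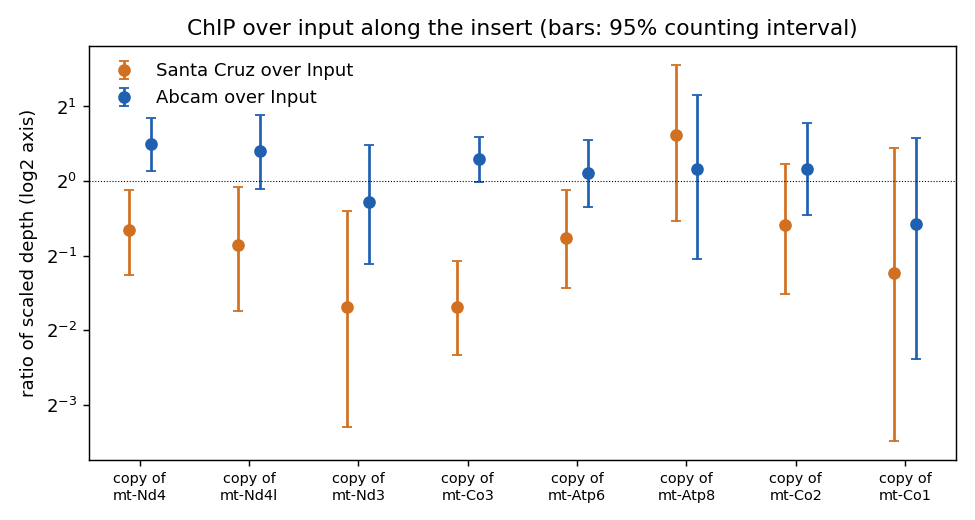
Ratio of scaled depth to input on a log2 axis (y axis) for Santa Cruz and Abcam over the 8 copies of mitochondrial protein-coding genes (x axis, in their order on chromosome 1), with bars for the exact 95% counting interval. The Santa Cruz points lie below 1 except at mt-Atp8, and are lowest at mt-Co3 and mt-Nd3, both 0.311.

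Part of the insert is shared with another nuclear copy. A part of 1310 bp at the mt-Co1 and mt-Co2 side also aligns to a copy on chromosome 2, and 45.6% of its stretches of 36 bases occur there without a difference. Its mean input depth was 60.6, against 186 in the rest of the insert, and the part of sharing in this was not tested, since the shared part is also an end of the insert. Between the antibodies the ratio was 1.66 (0.873 to 3.20) in that part and 2.44 (1.95 to 3.09) in the rest, and the intervals overlap. In the 300 bp around the 3 differences the mean input depth was 18.4 at A6393T, 173 at T9461C and 125 at the extra A. Part of the 300 bp around A6393T is flank, and the copy of mt-Co1 next to it had a mean input depth of 41.6.

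Nuclear copies of mitochondrial sequence elsewhere were not used to choose the genes, and they gave the same measure at other loci in the same libraries. They are not independent of the insert. The chromosome 2 copy aligns to 1310 bp of it, and how reads with several equal placements were treated is not given. There were 48 such copies besides the insert with an alignment of at least 300 bases. Summed over them, Santa Cruz over input was 0.563 (0.480 to 0.656), Abcam over input 1.40 (1.27 to 1.54) and Abcam over Santa Cruz 2.48 (2.09 to 2.97). In the insert the ratios were 0.507, 1.18 and 2.33. The copies were not alike. With a minimum of 50 input fragment equivalents, chosen after the values were seen, 6 copies held 2858 of the 3056 input fragment equivalents and gave 0.499, 1.38 and 2.77 (2.30 to 3.37). The other 42 held 198 in the input, 29.8 with Santa Cruz and 39.8 with Abcam, and gave a Santa Cruz over input of 1.49 (0.990 to 2.22), an Abcam over input of 1.63 (1.14 to 2.32) and an Abcam over Santa Cruz of 1.09 (0.663 to 1.81). The interval of Abcam over Santa Cruz in the 42 included 1 and lay below that of the insert (1.89 to 2.90), on few fragments. Whether copies with little input depth differ from Gm10222 and Gm10925 in the order of the libraries was not tested.

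The longest was on chromosome 2 (chr2:22442808-22446054, 97.4% identity), where the normalised depth was 54.3 in the input, with Santa Cruz 26.0 and 27.4, and with Abcam 76.0 and 74.6. The libraries stood in the same order as at Gm10222 and Gm10925, and Abcam over Santa Cruz was 2.82 (2.12 to 3.83). The next was on chromosome 4 (chr4:79648234-79651108, 93.0% identity), with a normalised depth of 39.5 in the input, 20.5 and 19.5 with Santa Cruz, and 57.8 and 62.6 with Abcam. The corresponding ratio was 3.01 (2.16 to 4.26). The next in length, on chromosome 9 (chr9:93067783-93069448, 78.6% identity), had 3 fragment equivalents in the input, 0 in both Santa Cruz libraries and 3 in both Abcam libraries, too few for a ratio.

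Since the minimum was set on the input, the ratios to input of the 6 copies above it and of the 42 under it are tied to it. Among the 6, Abcam over Santa Cruz ranged from 1.27 on chromosome 10 (0.512 to 3.71) to 3.12 on chromosome 6 (1.48 to 8.22), and every one of these intervals overlapped that of the insert. The interval excluded 1 in 4 of the 6. Santa Cruz was below input in 6 of the 6 and Abcam above input in 5, the exception being chromosome 12 at 0.876. Over all promoters the median was 0.877 for Santa Cruz over input and 0.923 for Abcam over input. Over all 40 kb windows it was 1.06 for both. The shares of promoters and windows on either side of 1 were not counted. The 6 copies had mean input depths between 66.5 and 114, compared with 151 in the insert. The other 42 had at most 16.0, with a median of 1.14. The sets differed in their likeness to mitochondrial sequence, with some overlap. Of the 6, the lowest share of stretches of 36 bases within 2 mismatches of mitochondrial sequence was 28.7%, on chromosome 6. The others of the 6 ran from 56.4% to 100%. Most of the 42 lay under 28.7%, and those above it ran from 29.0% to 82.5%.

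**Figure D5:**
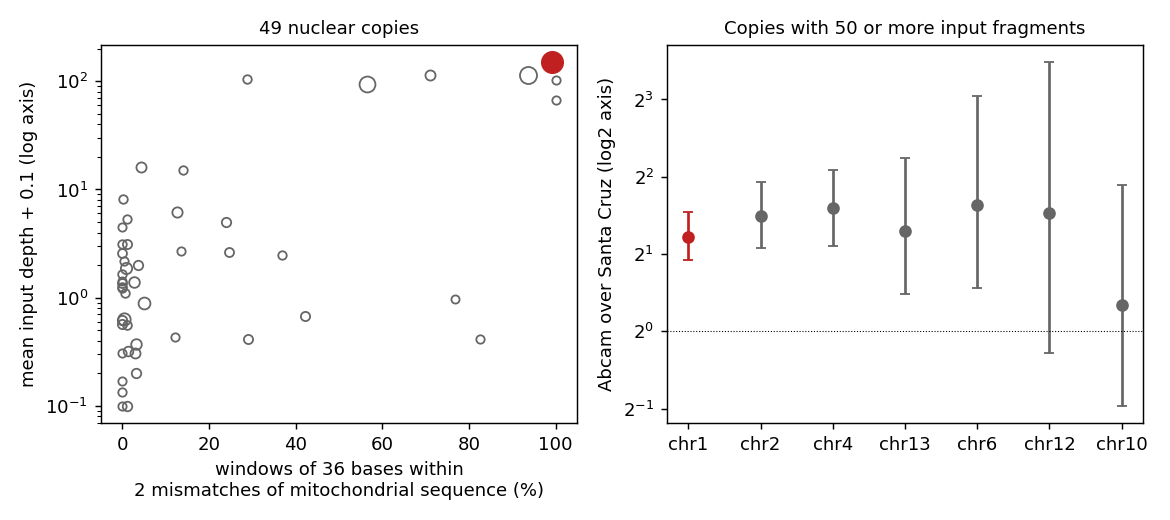
Left, mean input depth plus 0.1 (log axis) against the share of windows of 36 bases within 2 mismatches of mitochondrial sequence, for 49 nuclear copies, with larger circles for longer copies and the chromosome 1 insert in red. Right, Abcam over Santa Cruz (log2 axis) with the exact 95% counting interval in the insert and the 6 other copies with at least 50 input fragment equivalents, which run from 1.27 to 3.12 against 2.33 in the insert.

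The interval was set beside other windows of high input. In 11 windows of 40 kb, the interval included, the input was at least 5 times the median window. The interval stood at 8.03 times. In these 11 the ratio of Abcam to Santa Cruz had a median of 1.01 and a range from 0.855 to 2.19, the highest being the interval itself, the single one at 2 or more. Since the interval was chosen by its depth with Abcam against Santa Cruz and input, its place among the 11 is a description only. Median Santa Cruz over input was 1.30 and median Abcam over input 1.37 in the same windows.

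The nearest protein-coding genes did not share this depth. The promoters of Col19a1 and Col9a1, which encode collagen chains, and of Lmbrd1, which acts in lysosomal cobalamin transport, and Bai3, an adhesion receptor, had 44.1 to 66.6 input fragment equivalents, against 2058 at Gm10222. Col19a1, 24062 bp from the insert, had an Abcam over Santa Cruz ratio of 1.52 (0.569 to 5.32), and Lmbrd1, 62356 bp away on the other side, had 1.64 (0.509 to 6.10). Intervals as wide as these include both 1 and the values of the insert.

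Promoters nearest to the 2 genes in the plane of log2 Santa Cruz over input and log2 Abcam over input were found among 19055 promoters that also had depth with both antibodies, over the means of the 2 antibodies and the input. For Gm10222 they were Olfr446, Zscan21, Nfatc1, Lrrc30 and Ppfia4, at distances from 0.017 to 0.043. For Gm10925 they were Dlx3, Ddc, Gm11044, H2-Aa and Cog4, at distances from 0.0085 to 0.024. The likeness was in the ratios only, since the 10 promoters had 22.0 to 128.6 input fragment equivalents and 1.02 to 6 with Santa Cruz.

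Subunits of cytochrome c oxidase and ATP synthase are also encoded in the nucleus, and 27 such genes, among them Cox4i1, Cox5a, Atp5a1 and Atp5b, were measured in the same way. Their promoters had a median Santa Cruz over input of 0.787, against 0.877 over all promoters, and a median Abcam over input of 0.851, against 0.923. Abcam was at least 2-fold above Santa Cruz at 3 of the 27 and at least 2-fold below at 1, near the 12.2% and 8.19% of all promoters, with a median of 1.02 against 1.06 over all promoters. Atp5a1, a subunit of the catalytic part of ATP synthase, had the highest ratio of the 27, 3.35 (0.653 to 31.6), on 2 Santa Cruz and 8.19 Abcam fragment equivalents. The most input fragment equivalents at a promoter of the list was 121, at Atp5g2, against 2058 at Gm10222 and 1614 at Gm10925.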

How the data were processed

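The authors deposited, for each of the 5 libraries, a coverage signal on mm9 (NCBIM37). It gives at each position the number of reads, lengthened to 300 bp, that cover it, with no scaling for library size and no input division. The submitters' processing notes name Bowtie 0.1.2.7. How reads with several equal placements were treated is not given in the sources used here, and it bears on every value of an insert that has near-identical copies.

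Depth was summed over each region, divided by 300 to give fragment equivalents, and scaled to 1000000 per library. Ratios have exact Clopper-Pearson 95% intervals from fragment equivalents. Steps in the depth gave the position of each fragment, and most fragments of an antibody's replicate 1 were found in its replicate 2 at shifts of 1 or 15 bp (chi-square per degree of freedom over windows 0.121 with Santa Cruz and 0.132 with Abcam, 1.02 between antibodies). Nuclear copies were found with blastn 2.17.0 (word size 11, E-value 1e-05) from the mitochondrial sequence of NCBIM37. All sequences were read from NCBIM37. The placing of fragments and the ratios were tested on simulated data.

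The genes and lists were chosen with earlier results of these data known. Named by rule were the 2 genes, the mitochondrial genes the insert aligns to, the 2 protein-coding genes nearest on each side, the 5 promoters nearest to each gene in the plane of the log2 ratios, and the 3 other copies with the longest alignment; other copies, Atp5a1 and the list members named as examples were chosen beyond it. Alternatives were scaling by autosomal depth or by the median ratio over 10 kb windows, 1 fragment per position, each replicate left out, windows of 1, 3 and 10 kb, the insert alone, the interval without it, other input minimums, and copies of at least 1000 bases. Other tools were samtools 1.23.1, matplotlib 3.10.9, scipy 1.17.1 and Python 3.11.15.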

Additional observations from a re-analysis of the deposited data

How the results depend on the processing

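No ratio of the interval or the 2 genes changed direction under the alternatives tried. With 1 fragment kept per position, Santa Cruz over input moved to 0.822 in the interval, 0.747 at Gm10222 and 0.756 at Gm10925, and Abcam over input to 1.70, 1.84 and 1.71. The input had 2362 fragments centred in the insert, at 1365 positions, against 115 to 348 in the ChIP libraries. The part of this unequal depth in the change was not tested. Without the insert, the interval had a Santa Cruz over input of 0.901 and an Abcam over Santa Cruz of 1.40. With 1 kb on either side, Santa Cruz over input at Gm10925 was 0.594, and the cause was not tested. With each replicate left out, Abcam over Santa Cruz ran from 2.09 to 2.30 in the interval, 2.55 to 2.61 at Gm10222 and 2.28 to 2.45 at Gm10925. Over copies of at least 1000 bases it was 2.89. Over the 42 copies under 50 input fragment equivalents, a split added after seeing the data, Santa Cruz over input was 1.49 in place of 0.563, Abcam over input 1.63 in place of 1.40 and Abcam over Santa Cruz 1.09 in place of 2.48. Leaving out replicates over the gene copies was also added then. With no input minimum, the share of promoters at least 2-fold higher rose to 6.71% for Santa Cruz over input and 6.64% for Abcam over input (4.66% for Santa Cruz at a minimum of 10), and that at least 2-fold lower for Abcam over Santa Cruz to 11.4%. The shares of 40 kb windows at least 2-fold lower became 0.677%, 0.554% and 1.69% for Santa Cruz over input, Abcam over input and Abcam over Santa Cruz. No paired analysis was possible because the values come from no test and the replicates of an antibody hold largely the same fragments.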
